A study of Homo sapiens with 29 samples.

Results

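The HOX genes were studied here as a group of 39 genes, each with a symbol made of HOX, a cluster letter from A to D and a number, out of 38148 genes in the RNA table. The ChIP table added 37 of 49916 regions, namely those annotated to one of these genes or overlapping the span of one by at least 1 base. HOX genes encode homeodomain transcription factors that set position along the head to tail axis of the embryo. They lie in 4 clusters, HOXA to HOXD, in which genes with the same number descend from one ancestral gene and are called paralogs. Low numbers act towards the head and high numbers towards the tail, and adult tissues, the gut included, keep a part of that pattern. Polycomb complexes hold silent HOX genes in place, and MLL (trithorax) complexes keep active ones on.

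HCT116 is a human colorectal carcinoma line. Both assays covered 4 groups: DAXX siRNA (35 nM) with 10 mM crotonate, DAXX siRNA alone, non-targeting siRNA (25 nM) with 10 mM crotonate, and non-targeting siRNA alone. The DAXX protein delivers the replacement histone H3.3 to chromatin, and crotonate is a short-chain fatty acid whose crotonyl group can be attached to histone lysines (crotonyllysine, Kcr). The siRNA doses differ between the arms, so target and dose cannot be told apart. Crotonate lasted 18 h by the series text and 48 h by the sample protocol. RNA-seq had 4 libraries in each group. ChIP-seq with a pan antibody against Kcr had 2 libraries with crotonate and 4 without it for each siRNA, plus 1 input library from cells with DAXX siRNA. The labels do not say whether replicates were separate cultures, so p-values measure the spread between these libraries only.

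Reads summed over the genes of the RNA table came to 35003617 to 55128007 a library, and the depth behind RPM was 34265144 to 54093498 reads. Anti-Kcr libraries held 2226835 to 3639130 reads in the regions, and the input 1719036 reads. DAXX itself averaged 24.6 ± 2.06 RPM (reads scaled to a common library depth) with DAXX siRNA alone and 102.9 ± 1.60 RPM with non-targeting siRNA alone (SD, n = 4 each, limma adjusted p = 1.23e-08). With crotonate it averaged 19.3 ± 4.67 RPM with DAXX siRNA and 100.3 ± 3.38 RPM with non-targeting siRNA (SD, n = 4 each, limma adjusted p = 7.40e-10). Of 12 colon epithelial markers, CDX1 and TFF3 had 0 reads in all libraries. The summed level of these markers was 4190 to 5009 RPM with DAXX siRNA and crotonate, 4573 to 4999 RPM with DAXX siRNA alone, 3850 to 4077 RPM with non-targeting siRNA and crotonate, and 4068 to 4782 RPM with non-targeting siRNA alone. CDX2, a gut transcription factor upstream of HOX genes, averaged 16.7 to 18.1 RPM in the 4 groups and passed the test in no comparison. Of the 8 colon markers tested, CDH1 rose with crotonate under both siRNAs and EPCAM fell with DAXX siRNA. The list medians were -0.07 with DAXX siRNA and -0.13 with non-targeting siRNA. Markers of other cell types (15 genes) summed to 44.0 to 55.6, 31.2 to 41.0, 42.8 to 48.9 and 30.9 to 44.2 RPM in the same order of groups. Of the 9 tested, 2 rose with crotonate under each siRNA and none fell, with list medians of 0.66 with DAXX siRNA and 0.50 with non-targeting siRNA against 0.06 and 0.07 over all genes. DES, a muscle intermediate filament gene, rose under both (log2 fold change 1.54 with DAXX siRNA and 1.52 with non-targeting siRNA, limma adjusted p = 4.29e-07 and 4.32e-07). COL1A1, a fibroblast collagen gene, rose with DAXX siRNA (0.66, limma adjusted p = 0.012). The other call with non-targeting siRNA was PECAM1, an endothelial gene. PECAM1 reached the minimum for the test only in libraries with crotonate, so it entered the test only through groups in which it was high. Its call is given as a description and no fold change is drawn from it, which leaves DES with non-targeting siRNA. The part of these markers in the results below was not tested. In such bulk libraries, fewer cells of a type and less RNA per cell cannot be told apart.

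Promoter windows of 300 bases (250 before to 50 after a start) came from RefSeq on GRCh38.p14 and were at hand for 20 of the 39 genes. The 4 below belong to genes on which the results turn. HOXD8 rose with crotonate under both siRNAs and has no Kcr region at its start. HOXD11 had few reads and most of them with crotonate, HOXA7 fell with crotonate in cells with DAXX siRNA, and HOXA9 had the most reads of the HOXA cluster. CG dinucleotides, the sites of DNA methylation in vertebrate genomes, are in capitals.
HOXD8 (chr2:176129455-176129754, plus strand): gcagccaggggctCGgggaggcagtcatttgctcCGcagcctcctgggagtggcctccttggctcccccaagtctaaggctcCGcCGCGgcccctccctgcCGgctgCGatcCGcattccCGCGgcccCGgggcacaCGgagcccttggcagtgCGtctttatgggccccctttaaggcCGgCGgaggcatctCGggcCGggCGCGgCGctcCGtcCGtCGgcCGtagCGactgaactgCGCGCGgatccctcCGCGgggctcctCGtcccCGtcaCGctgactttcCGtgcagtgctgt
HOXD11 (chr2:176107030-176107329, plus strand): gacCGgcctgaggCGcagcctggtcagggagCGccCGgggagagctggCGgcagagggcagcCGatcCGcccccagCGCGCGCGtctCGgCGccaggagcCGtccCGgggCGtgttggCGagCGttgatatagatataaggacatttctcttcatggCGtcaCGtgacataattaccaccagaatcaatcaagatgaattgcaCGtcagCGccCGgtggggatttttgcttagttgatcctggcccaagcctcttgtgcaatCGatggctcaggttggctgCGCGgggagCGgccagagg
HOXA7 (chr7:27156626-27156925, minus strand): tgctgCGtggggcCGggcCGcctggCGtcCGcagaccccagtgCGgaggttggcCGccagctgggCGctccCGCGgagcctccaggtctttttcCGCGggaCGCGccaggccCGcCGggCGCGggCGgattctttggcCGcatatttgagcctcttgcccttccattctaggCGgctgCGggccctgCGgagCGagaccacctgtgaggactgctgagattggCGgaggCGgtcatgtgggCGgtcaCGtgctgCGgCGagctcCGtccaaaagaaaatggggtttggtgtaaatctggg
HOXA9 (chr7:27165488-27165787, minus strand): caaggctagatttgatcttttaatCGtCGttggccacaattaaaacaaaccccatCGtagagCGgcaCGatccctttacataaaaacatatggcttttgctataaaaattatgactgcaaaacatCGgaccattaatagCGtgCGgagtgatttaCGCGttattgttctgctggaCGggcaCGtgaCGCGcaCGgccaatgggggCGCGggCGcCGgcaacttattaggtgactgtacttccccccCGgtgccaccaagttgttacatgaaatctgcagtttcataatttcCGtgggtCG

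The HOXD8 window held 34 CG, the HOXA7 window 31, the HOXD11 window 27 and the HOXA9 window 22. Over the 26 windows of HOX genes (some genes have several starts) the median was 22.5 CG with a range of 0 to 44, against a median of 14 over all 35116 windows. The windows of HOXD11, HOXA7 and HOXA9 lay wholly inside Kcr regions, as did 13 of the 26. The RefSeq starts of 3 of these windows differ from the gene's start in the RNA table, by 9643 bases for HOXA9, 3064 for HOXD11 and 1261 for HOXA7, while that of HOXD8 is 11 bases away. The start in the RNA table lay in a Kcr region for HOXA9, HOXD11 and HOXA7. A TATA box core (TATAAA, either strand) was found in 5 of the 26 windows (19.23%) and in 11.53% of all windows. HOXA9 was 1 of the 5. The binding motif of TALE partners (TGACAG, either strand) was found in 4 of 26 (15.38%) and in 15.76% of all windows, and none of the 4 windows printed here held it.

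Transcripts of most HOX genes were present. A level of at least 0.25 RPM in at least 4 libraries was required for the test, and 17973 genes met it, among them 31 of the 39 HOX genes. All 11 HOXA genes were tested, 9 of 10 HOXB genes, 7 of 9 HOXC genes and 4 of 9 HOXD genes. By paralog number, 6 of 8 genes in groups 1 to 3, all 15 in groups 4 to 8 and 10 of 16 in groups 9 to 13 were tested. HOXB1, HOXC11, HOXC12, HOXD1, HOXD9, HOXD10, HOXD12 and HOXD13 lay under the limit. HOXB1 and HOXD1, head-end genes of their clusters, had 0 reads in all 16 libraries, which allows up to 3 reads, or 0.0555 to 0.0876 RPM depending on the library, from counting error alone.

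Within each cluster the gene with the most RPM gave the clearest view of the spread between libraries. RPM is not divided by transcript length, so no order of levels between genes is drawn from it. HOXA9, known for its part in leukaemia and in blood stem cells, had 79.9, 84.2, 83.6 and 80.0 RPM with DAXX siRNA and crotonate and 96.5, 92.2, 94.2 and 87.7 RPM with DAXX siRNA alone. It had 79.0, 78.8, 81.0 and 79.1 RPM with non-targeting siRNA and crotonate and 90.4, 67.9, 84.9 and 87.0 RPM with non-targeting siRNA alone. All 4 libraries with DAXX siRNA and crotonate were below all 4 with DAXX siRNA alone, but the difference missed the threshold (log2 fold change -0.18, SE 0.078, limma adjusted p = 0.144), and the groups with non-targeting siRNA overlapped. HOXA9 shares its span with HOXA10 and AC004080.3 on the same strand and with HOXA10-AS on the other, and reads in the shared stretches cannot be assigned to one of them.

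HOXB8, a regulator of myeloid and neural development, had 42.6, 36.3, 38.5 and 51.8 RPM with DAXX siRNA and crotonate and 40.4, 45.2, 41.1 and 57.8 RPM with DAXX siRNA alone. It had 34.5, 36.3, 34.7 and 41.4 RPM with non-targeting siRNA and crotonate and 42.0, 36.9, 39.9 and 39.3 RPM with non-targeting siRNA alone. The groups overlapped in every comparison. HOXC9, which patterns the thoracic spinal cord, had 8.33, 9.27, 8.67 and 9.53 RPM with DAXX siRNA and crotonate, 8.02, 8.12, 8.11 and 9.5 RPM with DAXX siRNA alone, 10.3, 8.71, 8.50 and 9.44 RPM with non-targeting siRNA and crotonate, and 8.76, 7.5, 8.53 and 8.23 RPM with non-targeting siRNA alone. Its groups overlapped as well. In the HOXD cluster the gene with the most RPM was HOXD8, described below.

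DAXX siRNA moved no HOX gene past the test. Without crotonate, 0 of 31 were called (limma, adjusted p under 0.05), where 0.406% of all genes tested were (0.1% higher, 0.306% lower). The median log2 fold change was 0.09 over the HOX genes and -0.01 over all genes, and 22 HOX genes lay above 0 and 9 below. Unadjusted p fell under 0.05 for 9 of the 31 HOX genes, against 12.2% of all genes, and limma-voom on the recovered reads also called 0. In the HOXA cluster 10 of 11 genes lay above 0. HOXA10, for example, averaged 39.4 ± 0.514 RPM with DAXX siRNA and 33.8 ± 4.12 RPM with non-targeting siRNA (log2 fold change 0.23, limma adjusted p = 0.301).

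With crotonate present, DAXX siRNA again gave 0 calls of 31, where 1.06% of all genes were called (0.389% higher, 0.668% lower). Unadjusted p fell under 0.05 for 2 HOX genes, against 10.9% of all genes, and limma-voom called 0. The median was 0.09 over the HOX genes and -0.01 over all genes. HOXA11, which patterns limbs and the female reproductive tract, averaged 13 ± 1.08 RPM with DAXX siRNA and 10.9 ± 0.643 RPM with non-targeting siRNA, both with crotonate (log2 fold change 0.26, limma adjusted p = 0.327). The comparisons with and without crotonate use separate libraries. The difference between the crotonate effects under the siRNAs, the interaction, was called for 0 of 31 HOX genes and for 0% of all genes by limma and for 0 HOX genes by limma-voom, with an unadjusted p under 0.05 for 2 HOX genes and 2.41% of all genes.

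Crotonate raised 5 HOX genes in cells with non-targeting siRNA and lowered none. HOXB13, HOXD8, HOXC10 and HOXC13 were among them. The 5 are 16.1% of the 31 tested, beside 13.1% of all genes called higher and 2.34% called lower. In cells with DAXX siRNA, HOXB13, HOXD8, HOXC5 and HOXD11 were called higher and HOXA7 lower. These are 12.9% and 3.23% of the 31, beside 13% and 2.41% of all genes. HOXD11 met the minimum for the test only through libraries with crotonate, which leaves 3 genes higher without it. On the deposited scale these shares are near those of all genes. On the other scales given below the shares of lower calls are larger, but several of those genes have overlapping spans and share reads. Over all 31 the median log2 fold change was -0.07 with DAXX siRNA (13 above 0, 18 below) and -0.03 with non-targeting siRNA (12 above, 19 below), while the medians over all genes were 0.06 and 0.07. The chart of crotonate changes by gene shows both comparisons, which share no libraries.

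**Figure D1:**
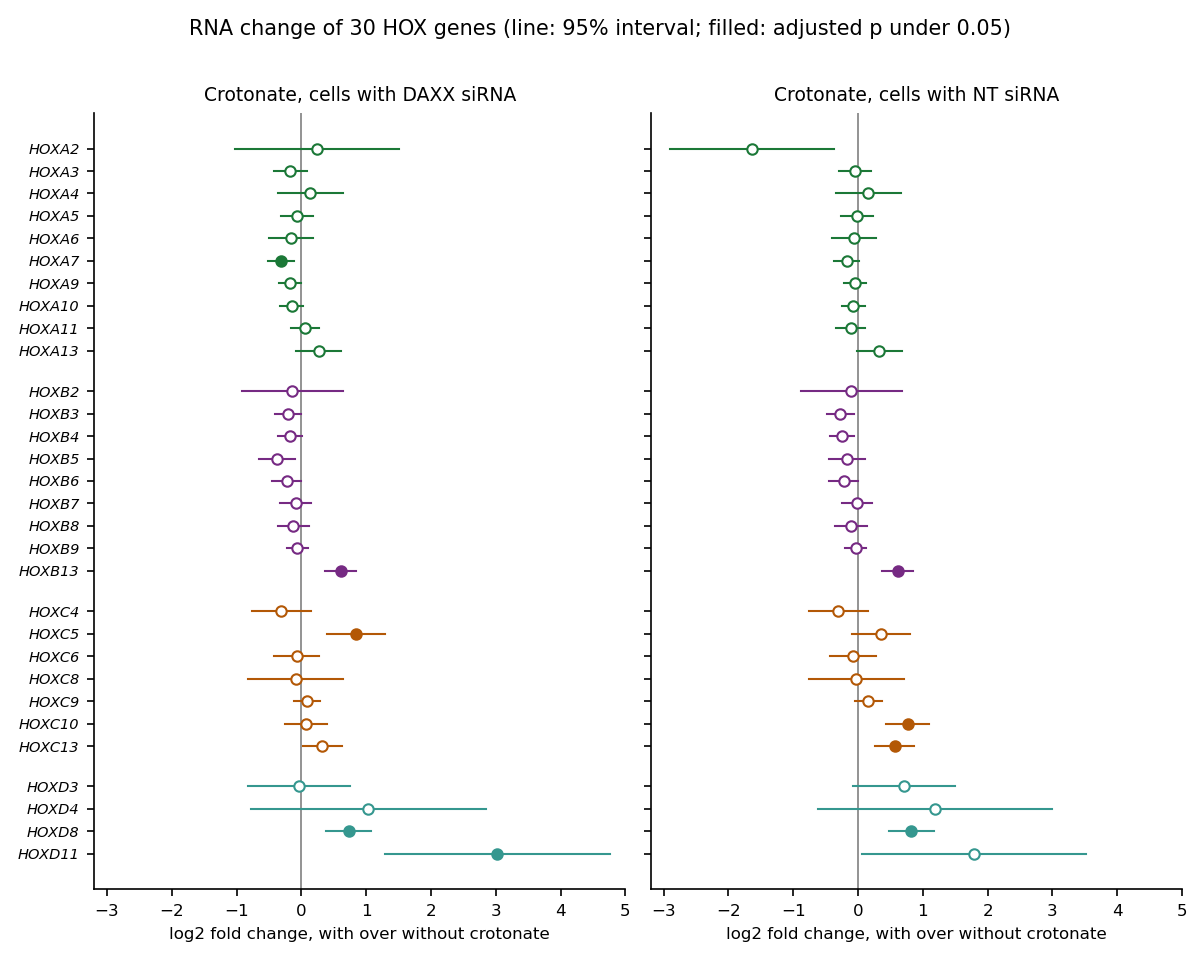
Log2 fold change of RNA (with over without crotonate) for 30 of the 31 tested HOX genes, in cells with DAXX siRNA on the left and non-targeting siRNA on the right. HOXD11 met the minimum for the test only through libraries with crotonate, so its points are a description only. Points are limma estimates from 4 libraries a group, lines their 95% intervals, and filled points have an adjusted p under 0.05; HOXB2 to HOXB9 lie below 0 in both panels, whereas HOXB13 and HOXD8 are the genes filled in both.

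HOXB13, expressed in prostate and distal gut and the tail-most gene of its cluster, rose with crotonate under both siRNAs. With DAXX siRNA it had 17.8, 23.3, 21.5 and 23.4 RPM with crotonate and 12.8, 12.3, 15.2 and 16.2 RPM without. With non-targeting siRNA it had 18.8, 20, 19.7 and 19.2 RPM with crotonate and 11.4, 15.5, 12.2 and 12 RPM without. Every library with crotonate lay above every library of the same siRNA without it. The log2 fold change was 0.61 (SE 0.114) with DAXX siRNA and 0.61 with non-targeting siRNA (limma adjusted p = 0.000915 and 0.000817). No other gene in the table overlaps HOXB13.

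HOXD8, a homeodomain factor of the trunk, rose under both siRNAs too. With DAXX siRNA it had 8.95, 9.89, 8.33 and 9.69 RPM with crotonate and 5.20, 4.70, 6.18 and 6.22 RPM without. With non-targeting siRNA it had 6.62, 6.98, 5.88 and 10.5 RPM with crotonate and 4.55, 3.18, 4.95 and 4.06 RPM without. The groups of each siRNA did not overlap, although 1 library with non-targeting siRNA and crotonate stood high. The log2 fold change was 0.73 with DAXX siRNA (limma adjusted p = 0.00429) and 0.82 with non-targeting siRNA (limma adjusted p = 0.00165). The antisense gene HOXD-AS2 overlaps it. Which strand was counted is not given in the sources used here, so the reads of the pair cannot be told apart.

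HOXC10 and HOXC13 rose with crotonate in cells with non-targeting siRNA. HOXC10, which acts in hindlimb motor neurons, had 4.24, 3.75, 3.07 and 4.20 RPM with non-targeting siRNA and crotonate and 2.31, 2.43, 2.33 and 1.88 RPM with non-targeting siRNA alone, with no overlap (log2 fold change 0.77, limma adjusted p = 0.00197). With DAXX siRNA it had 2.53, 3.27, 2.63 and 3.34 RPM with crotonate and 2.97, 2.28, 2.72 and 3.23 RPM without, and these overlapped (0.07, limma adjusted p = 0.821). The difference between the crotonate effects, tested as an interaction, was -0.69 log2 units with an unadjusted limma p of 0.00549 and an adjusted p of 0.995, so it did not pass. AC012531.3 and HOXC-AS3 overlap HOXC10.

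HOXC13, a regulator of hair and nail keratins, had 6.91, 8.63, 7.06 and 8.04 RPM with non-targeting siRNA and crotonate and 4.03, 5.45, 5.70 and 5.62 RPM with non-targeting siRNA alone. These did not overlap (log2 fold change 0.57, limma adjusted p = 0.00924). With DAXX siRNA it had 8.20, 7.47, 7.86 and 11.2 RPM with crotonate and 6.88, 7.92, 6.01 and 6.74 RPM without, and these overlapped (0.32, limma adjusted p = 0.146). Under quantile scaling the call with non-targeting siRNA was lost (0.35, adjusted p = 0.0913). HOXC13-AS lies on the other strand.

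On the deposited scale HOXC5, HOXD11 and HOXA7 were called with DAXX siRNA and not with non-targeting siRNA. HOXC5, a homeodomain factor inside the span of HOXC4, had 3.32, 2.62, 3.35 and 3.86 RPM with DAXX siRNA and crotonate and 1.40, 1.85, 1.45 and 2.97 RPM with DAXX siRNA alone (log2 fold change 0.84, limma adjusted p = 0.0108). Library 4 without crotonate lay within the range of the crotonate group. With non-targeting siRNA it had 2.98, 2.61, 3.18 and 2.78 RPM with crotonate and 2.33, 2.23, 2.91 and 1.69 RPM without (0.36, limma adjusted p = 0.302). HOXC4, AC012531.3 and AC012531.2 share its strand and span, and the call was lost under quantile scaling (0.62, adjusted p = 0.0573). The interaction for HOXC5 did not pass (0.48, limma adjusted p = 0.995).

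HOXD11, which shapes the forearm and kidney, had 21, 4, 10 and 31 reads with DAXX siRNA and crotonate and 0, 0, 5 and 0 reads with DAXX siRNA alone. It had 16, 5, 5 and 15 reads with non-targeting siRNA and crotonate and 2, 3, 0 and 4 with non-targeting siRNA alone. In RPM these are 0.361 ± 0.237 and 0.0355 ± 0.0709 with DAXX siRNA, and 0.237 ± 0.163 and 0.0559 ± 0.0409 with non-targeting siRNA (SD, n = 4 each, crotonate given first). The groups overlapped under both siRNAs. HOXD11 reached 0.25 RPM in 2 libraries of each crotonate group and in none without crotonate, so it entered the test only through the groups in which it was high. Its call is therefore given as a description, and no fold change is drawn from it. HOXD11 overlaps HOXD10 on the same strand.

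HOXA7, of the trunk group of the HOXA cluster, had 24.3, 20.9, 21.6 and 23.3 RPM with DAXX siRNA and crotonate and 26.1, 28.8, 27.2 and 29.8 RPM with DAXX siRNA alone, with no overlap (log2 fold change -0.31, SE 0.094, limma adjusted p = 0.0273). With non-targeting siRNA it had 22.9, 20.3, 20.6 and 19.5 RPM with crotonate and 27.1, 19.9, 24.4 and 22.9 RPM without (-0.17, limma adjusted p = 0.241), and these overlapped. The call was lost when library 2, 3 or 4 of DAXX siRNA alone, or library 2 or 3 of DAXX siRNA with crotonate, was left out. With each library centred on its median, HOXA7 was called lower under both siRNAs. HOXA-AS3 lies opposite HOXA7. It averaged 20.2 RPM with DAXX siRNA and crotonate and 24.5 RPM with DAXX siRNA alone (-0.28, limma adjusted p = 0.0514), a change of the same sign, and without strand the reads cannot be told apart.

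**Figure D2:**
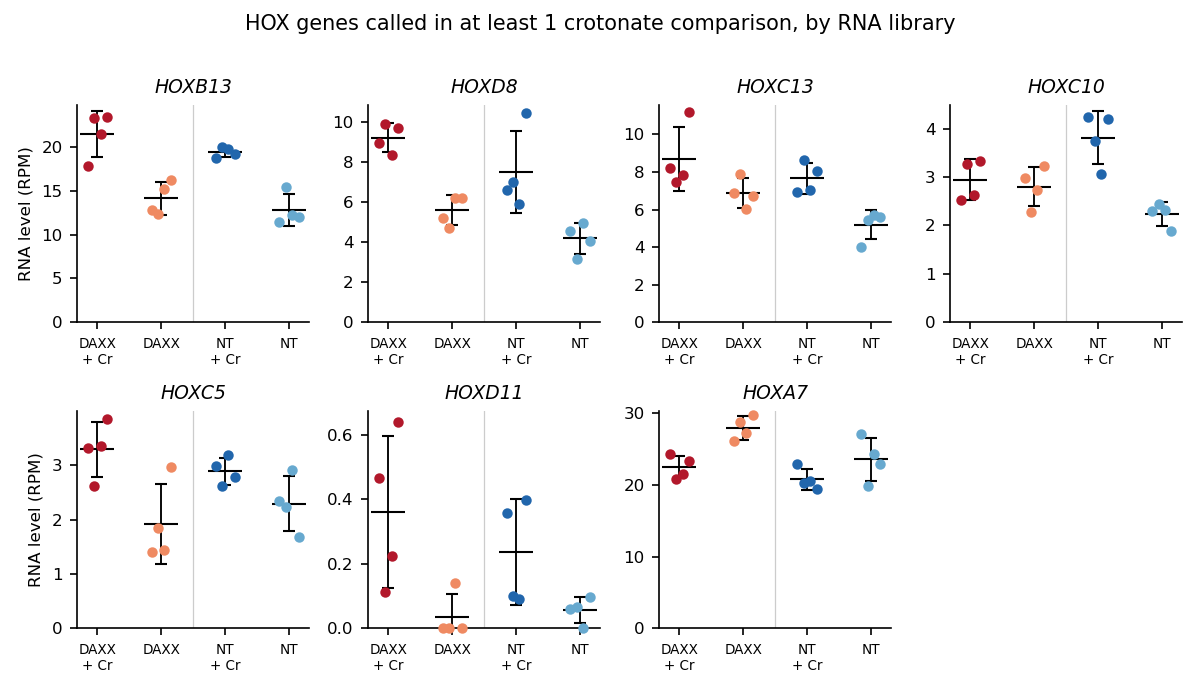
RNA level in RPM of 7 HOX genes called in a crotonate comparison, 1 point for each of the 4 libraries a group, with mean ± SD in black. Groups are DAXX siRNA with crotonate (Cr), DAXX siRNA, non-targeting (NT) siRNA with crotonate and NT siRNA; HOXB13 and HOXD8 have no overlap between libraries with and without crotonate under either siRNA, while HOXA7 is lower with crotonate under DAXX siRNA.

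Within the HOXB cluster the crotonate estimates other than that of HOXB13 had one sign. All 8 genes from HOXB2 to HOXB9 lay below 0 with DAXX siRNA (median -0.16, range -0.37 to -0.06) and with non-targeting siRNA (median -0.14, range -0.27 to -0.01). None of the 8 passed the test on the deposited scale. HOXB4, active in blood stem cells, averaged 20.5 ± 2.31 RPM with crotonate and 23.2 ± 1.34 RPM without in cells with DAXX siRNA (-0.18, limma adjusted p = 0.188). In cells with non-targeting siRNA it averaged 18.3 ± 0.973 RPM with crotonate and 21.7 ± 1.31 RPM without, with no overlap (-0.24, limma adjusted p = 0.0675). HOXB5, a factor of the gut nervous system, averaged 7.17 ± 1.08 RPM with crotonate and 9.30 ± 1.5 RPM without in cells with DAXX siRNA (-0.37, limma adjusted p = 0.0632). HOXB3 spans HOXB4, HOXB5 and HOXB6 on the same strand and HOXB7 spans HOXB8 and HOXB9, so estimates within these spans share reads and are not separate observations.

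The scaling bears on these genes. The deposited values put the median of all genes at 0.06 with DAXX siRNA and 0.07 with non-targeting siRNA under crotonate. Centring each library on the median of the genes tested shifts it by -0.12 and -0.13. With DAXX siRNA, 4 HOX genes (12.9%) were then called higher and 7 (22.6%) lower, beside 8.43% and 8.28% of all genes, and 4 were higher (12.9%) and 5 lower (16.1%) with non-targeting siRNA, beside 8.11% and 9.46%. Under quantile scaling 3 were higher (9.68%) and 6 lower (19.4%) with DAXX siRNA, beside 8.06% and 4.74% of all genes, and 3 were higher (9.68%) and 4 lower (12.9%) with non-targeting siRNA, beside 7.92% and 5.62%. With DAXX siRNA the test called 2338 genes of the whole table higher and 433 lower on the deposited scale, 1515 and 1488 after centring, and 1448 and 852 under quantile scaling. With non-targeting siRNA they were 2352 and 420, 1458 and 1701, and 1424 and 1010. No test of the difference from other genes was made. The HOX genes called higher with DAXX siRNA include HOXD11 on every scale, and it met the minimum only through libraries with crotonate. HOXB3 spans HOXB4, HOXB5 and HOXB6 on the same strand, and HOXA9 overlaps HOXA10. Lower calls among these genes share reads and are not separate observations. HOXB3, HOXB4 and HOXB6 were called lower under both siRNAs on the centred scale, as was HOXB5 with DAXX siRNA, and the same genes were called lower under quantile scaling. HOXA7 was called lower under both siRNAs on the centred scale and with DAXX siRNA under quantile scaling. HOXA2 was called lower with non-targeting siRNA on both of these scales. With DAXX siRNA, HOXA9 and HOXA10 were called lower on the centred scale and HOXA3 under quantile scaling. HOXB13 and HOXD8 were called higher under both siRNAs on all 3 scales. The median of the 7 HOXC genes was 0.07 with DAXX siRNA and 0.16 with non-targeting siRNA on the deposited scale, and it turned to -0.04 with DAXX siRNA on the centred scale and to -0.15 and -0.04 under quantile scaling.

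In the HOXA cluster 6 of 11 genes lay below 0 with DAXX siRNA and 8 of 11 with non-targeting siRNA, with medians of -0.08 and -0.05. HOXA2, a gene of the hindbrain and second pharyngeal arch, had the lowest estimate with non-targeting siRNA, at 0.207 ± 0.174 RPM with crotonate and 0.452 ± 0.0849 RPM without (-1.64, SE 0.61, limma adjusted p = 0.0756). It reached the minimum for the test in 4 libraries without crotonate and 2 with it, and rests on 35 reads with crotonate and 71 without over 4 libraries each. HOXA2 was called lower with limma-voom, on the centred scale and under quantile scaling, and when library 4 of non-targeting siRNA with crotonate was left out. HOXA13, which patterns the hindgut and the digits, averaged 8.46 ± 1.00 RPM with crotonate and 7.01 ± 0.570 RPM without in cells with DAXX siRNA (0.27, limma adjusted p = 0.317). In cells with non-targeting siRNA it averaged 7.96 ± 0.954 against 6.5 ± 1.78 RPM (0.33, limma adjusted p = 0.201). HOTTIP overlaps HOXA13 on the other strand.

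Most HOXD genes had few reads. HOXD10, under the limit for the test, had 5, 1, 2 and 22 reads with DAXX siRNA and crotonate and 0, 0, 5 and 0 with DAXX siRNA alone. It had 11, 10, 3 and 11 reads with non-targeting siRNA and crotonate and 1, 0, 1 and 0 with non-targeting siRNA alone. The 4 crotonate libraries with non-targeting siRNA lay above the 4 without it, while those with DAXX siRNA overlapped. HOXD10 overlaps HOXD11 on the same strand, and reads in the shared stretch cannot be assigned to one of them. HOXD13, the tail-most HOXD gene, had 0 to 3 reads in each library.

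Kcr regions that lie between HOX genes and are annotated to none of them were not counted here. The 37 HOX regions covered the clusters unevenly. They covered 60.3% of the 200.7 kb from the first to the last HOXB gene (5 regions), 50% of 106.8 kb in HOXA (13 regions), 43.7% of 117.2 kb in HOXC (14 regions) and 10.8% of 98.2 kb in HOXD (5 regions). A HOXB region of 67350 bases, chr17:48547801-48615150, holds the starts of HOXB3, HOXB4, HOXB5, HOXB6 and HOXB8 and ranks 17 by length among all 49916 regions. The median length of the 37 HOX regions was 3000 bases, against 1800 over all regions. Coordinates are those of the ChIP table on GRCh38.

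**Figure D3:**
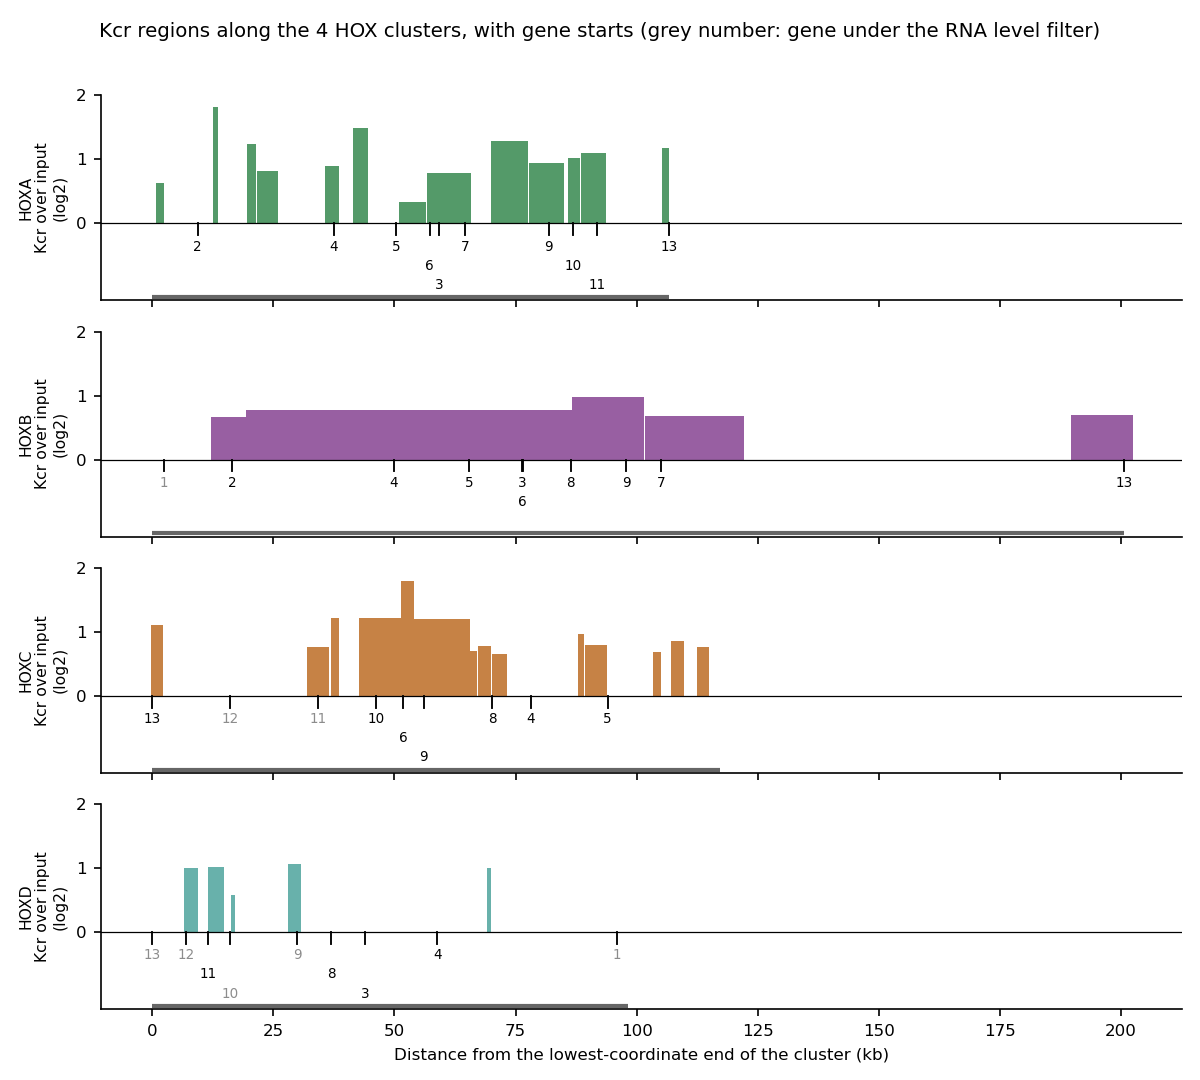
Kcr regions annotated to or overlapping a HOX gene, drawn along each cluster by distance in kb from the end with the lowest coordinate. Other Kcr regions are not drawn. Bar height is the mean log2 value of the anti-Kcr libraries minus the input, ticks with paralog numbers are gene starts (grey where the gene lay under the limit for the RNA test), and the grey line is the span of the cluster; HOXB is covered by long regions and HOXD by 5 short ones.

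Signal over the input was near that of all regions. The mean log2 value of the 12 anti-Kcr libraries minus the input had a median of 0.95 over the HOX regions (range 0.34 to 1.82) and 0.93 over all regions, and 19 of 37 lay above the median of all. There is 1 input library, so these values have no replicate check. In HOXA the highest was chr7:27105901-27106950 within HOXA3 (1.82), which rests on 5 input reads and as few as 7 reads in an anti-Kcr library. In HOXC it was chr12:53990251-53992950, at the start of HOXC6 (1.79). In HOXD it was chr2:176120851-176123550, at the start of HOXD9 (1.06), and in HOXB chr17:48615151-48630150, at the start of HOXB9 (0.98).

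The starts of 21 of the 31 tested HOX genes (67.7%) lay in a Kcr region, against 61.1% of all genes tested. Of the 8 genes under the limit for the RNA test, HOXC11, HOXD9 and HOXD12 had a start in a region (37.5%), against 15.4% of all genes under it. Among the called genes, HOXB13, HOXC10, HOXC13, HOXD11 and HOXA7 had one. HOXC5 started 153 bases outside a region. HOXD8, the gene with the largest crotonate increase among those called under both siRNAs, started 6144 bases from the nearest HOX region.

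The limma test for Kcr called 0 of 37 with DAXX siRNA, without crotonate and with it, and 0 of all 49916 regions. Unadjusted p fell under 0.05 for 1 and 0 HOX regions, against 3.01% and 3.82% of all regions. Crotonate gave 0 of 37 with DAXX siRNA, where 0.00601% of all regions were called lower, and 0 of 37 with non-targeting siRNA, where 0.194% were. Unadjusted p fell under 0.05 for 10 and 12 HOX regions, against 10.9% and 19.0% of all, and limma-voom called 0 in each comparison. With the near-identical libraries 1A and 1B merged into 1 sample, limma called 0 of all regions in both crotonate comparisons, with an unadjusted p under 0.05 for 4268 regions with DAXX siRNA and 6662 with non-targeting siRNA. The interaction called 0 of 37, and 0 of all regions. The labels do not say what the number in a library name shares. Without the library numbered 2 of DAXX siRNA with crotonate, 4 HOX regions were called lower under crotonate with DAXX siRNA, beside 2.09% of all regions. Without the library numbered 3 of non-targeting siRNA alone, 3 were called lower with non-targeting siRNA, beside 3.77% of all regions.

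Under crotonate the estimates lay mostly below 0 on the deposited scale, as they did over all regions. With DAXX siRNA 31 of 37 were below 0 (median -0.19, all regions -0.17), and with non-targeting siRNA 33 of 37 were (median -0.31, all regions -0.23). Centring moved the medians of all regions by 0.14 and 0.20, to -0.02 and -0.03, and those of HOX regions to -0.05 and -0.11. On that scale 21 and 27 of the 37 HOX regions lay below 0, and under quantile scaling 18 and 24 did. The 13 HOXA regions had a median of -0.37 with DAXX siRNA and -0.36 with non-targeting siRNA, and 11 of 13 stayed below 0 under both siRNAs with either other scaling.

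**Figure D4:**
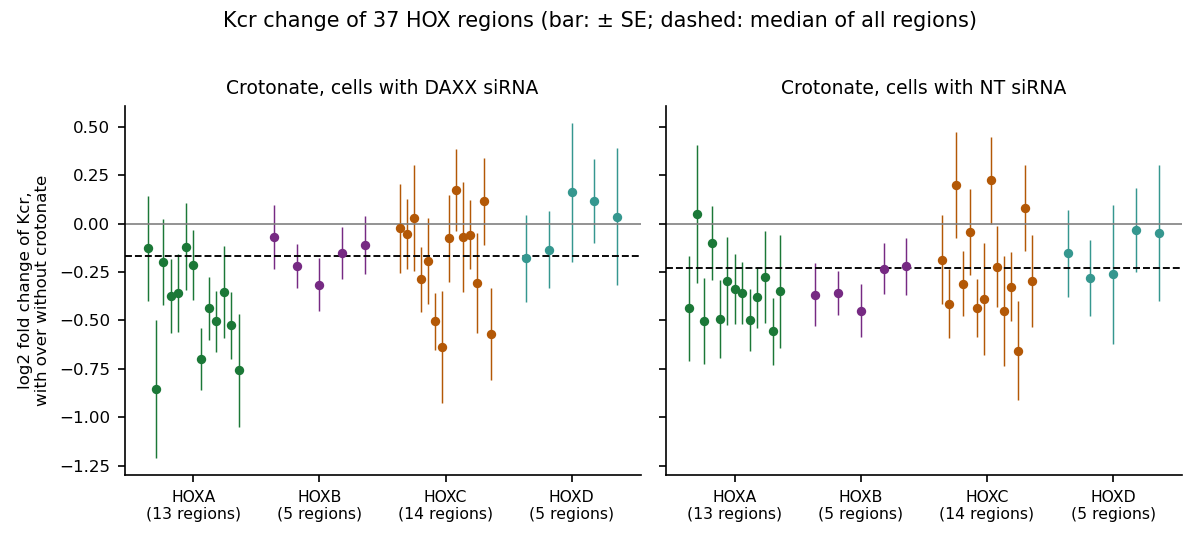
Log2 fold change of Kcr (with over without crotonate) for the 37 HOX regions by cluster, in order of position, with DAXX siRNA on the left and non-targeting siRNA on the right. Points are limma estimates, bars ± SE, and the dashed line is the median of all regions; 11 of 13 HOXA points lie below the dashed line in each panel and no region passed the test.

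The smallest adjusted p among HOX regions was 0.0867, at chr17:48615151-48630150 around HOXB9 and HOXB7. Libraries 1A and 1B differed by about as much as read sampling gives and are shown as 1 sample, so 2 values stand with crotonate and 3 without. The limma estimates keep 1A and 1B as separate libraries (2 against 4). It had 437.4 and 358.3 scaled reads with non-targeting siRNA and crotonate and 591.1, 499.9 and 490.4 with non-targeting siRNA alone, against 249.8 in the input. The groups did not overlap (log2 fold change -0.45, SE 0.14). With 1A and 1B merged the estimate was -0.41 (limma adjusted p = 0.276). With DAXX siRNA it had 470.7 and 398.8 scaled reads with crotonate and 558.0, 578.6 and 470.4 without, and the groups overlapped (-0.32, limma adjusted p = 0.411, or -0.30 and 0.585 merged).

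The broad HOXB region of 67350 bases gave 1791 and 1649 scaled reads with DAXX siRNA and crotonate and 2059, 2135 and 1768 with DAXX siRNA alone (-0.22, limma adjusted p = 0.488), which overlapped. It gave 1662 and 1476 with non-targeting siRNA and crotonate and 2148, 1892 and 1866 with non-targeting siRNA alone (-0.36, limma adjusted p = 0.0984), without overlap. The input held 1093. The HOXB13 region, chr17:48718201-48730950, gave 334.8 and 312.8 scaled reads with DAXX siRNA and crotonate and 345.4, 353.9 and 351.8 with DAXX siRNA alone (-0.11, limma adjusted p = 0.817). It gave 301.5 and 281.2 with non-targeting siRNA and crotonate and 391.8, 341.9 and 252.5 with non-targeting siRNA alone (-0.22, limma adjusted p = 0.430). Its Kcr estimates were below 0 on the deposited scale while HOXB13 RNA rose. The medians of all regions on that scale were -0.17 with DAXX siRNA and -0.23 with non-targeting siRNA, and neither HOXB13 estimate lay below them.

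The region at the HOXA7 start, chr7:27150001-27159150, also holds the starts of HOXA3 and HOXA6. It gave 158.4 and 123.8 scaled reads with DAXX siRNA and crotonate and 231.4, 245.8 and 202.9 with DAXX siRNA alone, without overlap (-0.70, limma adjusted p = 0.192). It gave 179.0 and 141.7 with non-targeting siRNA and crotonate and 231.1, 181.2 and 179.4 with non-targeting siRNA alone, again without overlap (-0.36, limma adjusted p = 0.217). Across the 21 genes with a start in a region, which share 15 regions, the crotonate changes of Kcr and RNA had a Pearson r of 0.29 and a Spearman rho of 0.31 with DAXX siRNA, and 0.26 and 0.30 with non-targeting siRNA. These describe genes that share libraries and regions. HOXD11 is among the 21 genes, and it met the minimum for the RNA test only through libraries with crotonate. Its RNA change enters all of these values, so no link between Kcr and RNA is read from them.

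Partners and regulators of HOX genes were read from the same RNA fit. Of 10 TALE homeodomain genes tested, whose proteins bind DNA with HOX proteins, 5 rose and 1 fell with crotonate in cells with DAXX siRNA, and 4 rose with non-targeting siRNA (median 0.18 and 0.08, all genes 0.06 and 0.07). Of all genes, 13% rose and 2.41% fell with DAXX siRNA, and 13.1% rose and 2.34% fell with non-targeting siRNA. PBX3 averaged 15.3 ± 1.11 RPM with crotonate and 10.6 ± 0.534 RPM without in cells with DAXX siRNA (0.54, limma adjusted p = 0.0014), and 13.6 ± 0.809 against 8.59 ± 1.39 RPM in cells with non-targeting siRNA (0.68, limma adjusted p = 0.000153). MEIS3 averaged 29.3 ± 6.38 RPM with crotonate and 17.0 ± 1.77 RPM without in cells with DAXX siRNA (0.77, limma adjusted p = 0.000341). Where crotonate was present, DAXX siRNA raised TGIF2 (21.9 ± 1.55 against 15.8 ± 0.65 RPM, 0.47, limma adjusted p = 0.00588) and lowered TGIF1 (83.3 ± 5.92 against 110.1 ± 4.32 RPM, -0.40, limma adjusted p = 0.00199). Both are repressors of the TALE class.

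Of 12 genes for AF9, DOT1L and elongation factors, 2 rose with crotonate under each siRNA and none fell (median 0.10 with DAXX siRNA and 0.02 with non-targeting siRNA), beside 13% and 13.1% of all genes that rose. MLLT3, which encodes AF9, a reader of acylated histone lysines that recruits DOT1L to HOXA genes in leukaemia, averaged 14 ± 1.47 RPM with crotonate and 7.36 ± 0.195 RPM without in cells with DAXX siRNA (0.92, limma adjusted p = 4.22e-06). In cells with non-targeting siRNA it averaged 16.7 ± 1.93 RPM with crotonate and 7.57 ± 0.541 RPM without (1.14, limma adjusted p = 3.77e-07). ELL2, an elongation factor, also rose under both siRNAs (0.56 and 0.66).

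Of 38 Polycomb genes tested, 4 rose and 1 fell with crotonate in cells with DAXX siRNA, and 5 rose and 2 fell with non-targeting siRNA (median 0.06 and 0.03), beside 13% and 13.1% of all genes that rose and 2.41% and 2.34% that fell. JARID2, a subunit that guides Polycomb complex 2, averaged 40.6 ± 4.29 RPM with crotonate and 25.2 ± 1.99 RPM without in cells with DAXX siRNA (0.68, limma adjusted p = 1.87e-05), and 36.8 ± 2.15 against 24.7 ± 1.02 RPM in cells with non-targeting siRNA (0.57, limma adjusted p = 0.00012). BCOR, a partner of Polycomb complex 1, fell under both (-0.29 and -0.34). Of 20 trithorax and MLL complex genes, none passed with DAXX siRNA and 2 fell with non-targeting siRNA, WDR5 (-0.28, limma adjusted p = 0.00959) and SETD1B (-0.41, limma adjusted p = 0.0358). Their median was 0.00 with DAXX siRNA and -0.06 with non-targeting siRNA.

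Of 11 upstream regulators tested, 3 rose with crotonate under each siRNA and RARG, a retinoic acid receptor, fell with DAXX siRNA (-0.26), beside 13% and 13.1% of all genes that rose and 2.41% that fell with DAXX siRNA. CYP26B1, which breaks down retinoic acid, averaged 35.3 ± 2.67 RPM with crotonate and 22.5 ± 2.56 RPM without in cells with DAXX siRNA (0.65, limma adjusted p = 0.0004), and 37.5 ± 3.40 against 24.7 ± 4.26 RPM in cells with non-targeting siRNA (0.61, limma adjusted p = 0.000715). GDF11, a ligand that times the switch to tail-end HOX genes, rose by 0.48 under both siRNAs. The list medians were 0.01 with DAXX siRNA and -0.04 with non-targeting siRNA. ALDH1A3, an enzyme that makes retinoic acid, was higher with DAXX siRNA where crotonate was present, at 588 ± 15.9 RPM against 474 ± 30.2 RPM with non-targeting siRNA (0.31, limma adjusted p = 0.0168).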

How the data were processed

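Members and gene lists were chosen with earlier results of these data known. The submitters' processing notes name Trim Galore 0.6.2, cutadapt 2.3 and HISAT2 2.2.1 for RNA, and Trim Galore 0.6.5, Bowtie2 and MACS for ChIP, on GRCh38. Counting strand is not given in the sources used here. The deposited values are log2: in the RNA table log2 RPM, with 0.9 read in place of 0, and in the ChIP table log2 reads per region times 1 factor per library, with the input not subtracted. Undoing the scale gave whole reads (within 0.01 read, wider at high counts) for 100% of values.

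limma 3.58.1 (R 4.3.3; Python 3.11.15 for tables) modelled those values by group, with moderated variances that follow the mean level and p-values adjusted by Benjamini-Hochberg over all genes or regions. RNA genes needed 0.25 RPM in 4 libraries. The fit was tested on simulated reads. ChIP libraries 1A and 1B differed little beyond read sampling (chi-squared over degrees of freedom 1.009 for non-targeting and 1.013 for DAXX siRNA, against 1.036 to 1.426 for other pairs) and count as 1 sample in group values, while the fit keeps both. Named genes are those called, the gene with the most RPM in each cluster, the region highest over input in each cluster, and up to 2 called genes each way from each list; others were picked after their values were seen. Some genes that enter the counts are not reported here by name. Alternatives were other scalings, filters, limma-voom, a replicate block and leaving out each library. Floors cover counting error only.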

Additional observations from a re-analysis of the deposited data

Results flagged for a closer look

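In 4 cases 1 library of a group stood apart from the other 3 by Dixon's criterion, out of 44 groups of 4 examined. Chance gives about 1 in 20 groups. HOXA9 had 81.0 RPM in the highest library with non-targeting siRNA and crotonate, against 78.8 to 79.1 RPM in the others. HOXC9 had 9.5 RPM in the highest library with DAXX siRNA alone, against 8.02 to 8.12 RPM in the others. HOXC13 had 4.03 RPM in the lowest library with non-targeting siRNA alone, against 5.45 to 5.70 RPM in the others. HOXD11 had 0.142 RPM in the highest library with DAXX siRNA alone, against 0 in the others.

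HOXD12, a limb and hindgut gene under the limit for the RNA test, had 8 reads over the 4 libraries with DAXX siRNA and crotonate and 0 with DAXX siRNA alone. It had 10 reads with non-targeting siRNA and crotonate and 0 with non-targeting siRNA alone. The reads fell in 2 of 4 and 3 of 4 crotonate libraries. With no filter on low values its crotonate changes did not pass (limma adjusted p = 0.491 with DAXX siRNA and 0.411 with non-targeting siRNA).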

How the results depend on the processing

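HOXB13 and HOXD8 with both siRNAs, and HOXC10 with non-targeting siRNA, kept their direction and call in all 25 alternatives. HOX genes called by crotonate rose to 11 with DAXX siRNA and 9 with non-targeting siRNA under median centring, and to 9 with DAXX siRNA under quantile scaling, through added lower calls; leaving out 1 library gave 4 to 6 calls in both comparisons. Counts with DAXX siRNA include HOXD11 where it was called, although it met the minimum for the test only through libraries with crotonate. Comparisons of DAXX siRNA and the interaction stayed at 0 calls in every alternative run. With no filter on low values HOXD10 was called higher with non-targeting siRNA (limma adjusted p = 0.036). That call rests on few reads, some of which HOXD10 may share with HOXD11. When 1 library was left out, ChIP counts ranged from 0 to 4 with DAXX siRNA (4 without its crotonate library numbered 2). With non-targeting siRNA they ranged from 0 to 3 (3 without the library numbered 3 of non-targeting siRNA alone). The median log2 signal over input of HOX regions, 0.95, became 0.064 after centring, since the input was centred too. With the number in the library name as a block, 4 of 37 HOX regions were called lower under crotonate with non-targeting siRNA. Beside these, 1396 of all 49916 regions were called lower and 12 higher. Among the 4 were chr17:48547801-48615150 and chr17:48615151-48630150. With that block, RNA calls became 6 with DAXX siRNA (4 higher, 2 lower), beside 2581 higher and 584 lower of all 17973 genes. With non-targeting siRNA they stayed at 5, all higher, beside 2632 higher and 516 lower. Whether same-numbered libraries are paired was not settled. In deviations from group means, same-numbered RNA libraries correlated at -0.25 to 0.19 (median 0.07) and others at -0.19 to 0.31 (median -0.02). Of 16 RNA libraries, 7 correlated best with their own number. Same-numbered ChIP libraries correlated at -0.01 to 0.09 (median 0.03) and others at -0.09 to 0.04 (median -0.01). Of 12 ChIP libraries, 9 correlated best with their own number. The cause of these changes was not tested. With 2 ChIP libraries a group under crotonate, and as few as 7 reads in a region, small Kcr changes were not detectable.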

Other observations

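Transcripts inside the clusters other than the 39 genes gave 1 call of 14 tested with crotonate in cells with DAXX siRNA and 0 with non-targeting siRNA, beside 13% and 13.1% of all genes called higher. HOTTIP, transcribed from the HOXA13 end of its cluster, averaged 0.583 ± 0.156 RPM with crotonate and 0.252 ± 0.0786 RPM without in cells with DAXX siRNA (log2 fold change 1.21, limma adjusted p = 0.0405, SD, n = 4 each). In cells with non-targeting siRNA it averaged 0.474 ± 0.167 RPM with crotonate and 0.256 ± 0.111 RPM without (0.90, limma adjusted p = 0.133). HOTTIP overlaps HOXA13 on the other strand, which averaged 8.46 RPM with crotonate and 7.01 RPM without in cells with DAXX siRNA. Without strand the reads of the pair cannot be told apart.

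Of 18 genes tested in the flanks of the clusters, crotonate raised 2 and lowered 1 with DAXX siRNA and raised 5 and lowered 1 with non-targeting siRNA, beside 13% and 13.1% of all genes raised and 2.41% and 2.34% lowered. JAZF1, a zinc finger gene beside HOXA, averaged 11.6 ± 2.37 RPM with crotonate and 6.65 ± 1.03 RPM without in cells with DAXX siRNA (0.79, limma adjusted p = 0.00147), and 8.91 ± 0.641 against 4.45 ± 0.84 RPM in cells with non-targeting siRNA (1.02, limma adjusted p = 0.000141). CALCOCO2, an autophagy receptor gene beside HOXB, rose by 0.30 and 0.33. CBX5, which encodes heterochromatin protein HP1 alpha and lies beside HOXC, averaged 133.1 ± 11.4 RPM with crotonate and 179.3 ± 6.87 RPM without in cells with DAXX siRNA (-0.43, limma adjusted p = 0.00328), and 143 ± 8.84 against 192.2 ± 29.1 RPM in cells with non-targeting siRNA (-0.41, limma adjusted p = 0.00452).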
